A study of Homo sapiens with 8 samples.

Results

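The genes described here are 57 protein-coding genes of 16p, the short arm of chromosome 16, out of 23228 genes listed in the count tables. All 57 lie on 16p in the annotation used, had a mean of at least 10 counts per library and passed the filter on low counts. They are part of 289 genes of the arm that could be tested, so 232 tested genes of the arm are not on the list. The arm had been picked because its transcripts were shifted between knockout and control cells. Values of knockout against control cells are therefore given as a description of these genes, without a test. The members with the fewest reads were PPL with a mean of 18.8 counts per library, CORO1A with 41.0 and DECR2 with 213, and no member lay below the minimum.

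ES2, an established ovarian cancer line of human origin, was profiled by RNA sequencing as 8 libraries, 2 for each of 4 groups. ES2 control cells and ES2 cells with knockout of KDM1A, a demethylase acting on lysine 4 of histone H3, had each received either vehicle or the oestrogen receptor beta agonist LY500307 at 5 µM, and all were harvested after 48 h. The study asked how KDM1A loss bears on the response to this agonist. The sources used here do not say whether the knockout cells were 1 clone or a pool, and no second knockout line was analysed here, so the knockout and any other difference between these 2 cell populations cannot be told apart. The labels describe duplicates as sequencing runs and name no separate cultures, so every p-value rests on a spread between libraries that may be technical.

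Gene totals lay between 24348937 and 30131097 counts per library. KDM1A itself stood at 220 and 219 CPM (read counts scaled to a common library size) in vehicle-treated control cells, at 75.6 and 77.8 in vehicle-treated knockout cells, at 238 and 241 in LY500307-treated control cells and at 72.0 and 71.6 in LY500307-treated knockout cells. The transcript was lower in every library labelled knockout, although a count over the whole gene does not reach the edit itself. Of the markers of an epithelial ovarian line, keratin KRT7 stood at 252 to 342 CPM in control and 349 to 370 CPM in knockout libraries. KRT18 stood at 320 to 365 against 141 to 163 CPM and KRT8 at 25.1 to 32.1 against 5.29 to 7.49 CPM. PAX8 and WT1 were higher in knockout libraries. EPCAM did not exceed 2.13 CPM and MUC16 was at 0 in 7 of 8 libraries. The mesenchymal marker VIM stood at 7383 to 8711 CPM in control and 9649 to 12399 CPM in knockout libraries, and FN1 at 3352 to 3507 against 674 to 897 CPM. Markers of other cell types were present in part. Of 6 haematopoietic markers 4 had a count, with sums of 96.9 to 112 CPM in control and 62.9 to 75.6 CPM in knockout libraries, nearly all of it from CD68, while CD3E and HBB were at 0 and PTPRC did not exceed 0.105 CPM. All 4 endothelial markers had a count, with sums of 82.9 to 105 CPM in control and 25.9 to 32.6 CPM in knockout libraries, nearly all of it from CDH5, and VWF did not exceed 0.140 CPM. All 5 fibroblast and mesothelial markers had a count, with sums of 64.8 to 86.0 CPM in control and 14.0 to 21.5 CPM in knockout libraries. Most of it came from PDGFRA, and DCN did not exceed 0.107 CPM. These sums were lower in knockout libraries, while LUM and LYZ were higher. LUM did not exceed 0.0426 CPM in control and stood at 1.17 to 2.36 CPM in knockout libraries. LYZ, a haematopoietic marker, stood at 0.256 to 0.464 against 0.908 to 2.34 CPM. The part of these markers in the results was not tested.

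Chromosome arm 16p is dense in genes for growth control, chromatin, mitochondria and protein turnover. As background, loss or gain of a stretch of chromosome changes the number of templates of all genes on it at once, and transcripts of most genes follow that number roughly, whereas a regulator acts on single genes through their promoters and enhancers. The former gives a similar shift over neighbouring genes of unrelated function, and the latter gives changes that differ from gene to gene. DNA copy number is not among the data analysed here, and its part in the values below was not tested.

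The shift was seen in every part of the arm and not over 16q as a whole. With vehicle, the median log2 fold change of knockout against control was -0.63 for the 57 genes and -0.68 for the 232 other tested genes of the arm, against -0.01 for 256 tested genes of the long arm, 16q, and -0.01 for all 13498 genes tested. The tested genes of 16p were taken in order along the arm in 12 windows of 24 or 25 genes. Every window had a negative median, from -0.52 in the window between COG7 and ATXN2L (hg19 chromosome 16, 23399814 to 28848558) to -0.83 in the window between HAGH and RNPS1 (1845621 to 2318398). The last window before the centromere, from ZNF629 to UBE2MP1 (30789777 to 34404612), stood at -0.71. The first window of 16q, from SHCBP1 to IRX5 (46612503 to 54968397), stood at 0.27 and the next one at 0.59, and the other 8 windows of 16q lay between -0.20 and 0.06. No window on 16p reached the median of any window on 16q. By distance from the end of the arm, 97 distal, 96 middle and 96 proximal genes had medians of -0.64, -0.66 and -0.67. The listed genes among them, 28 distal, 16 middle and 13 proximal, had medians of -0.63, -0.66 and -0.45.

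**Figure D1:**
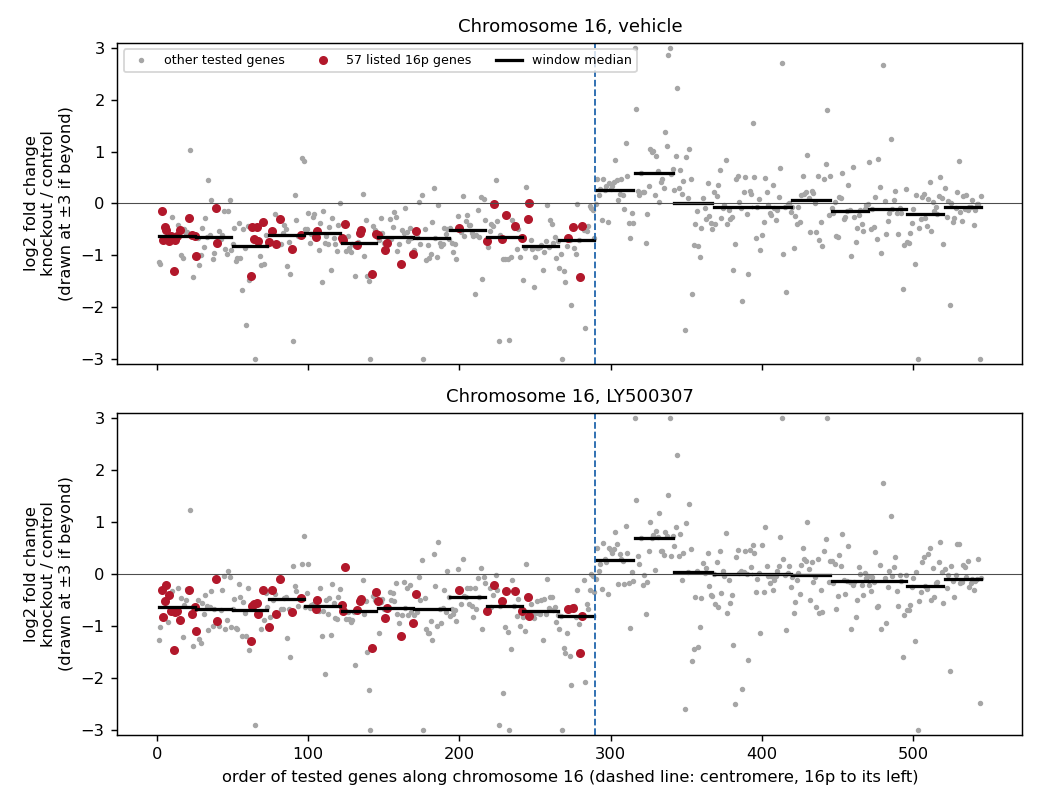
Log2 fold change of knockout against control (vertical axis) of each tested gene of chromosome 16 in its order along the chromosome (horizontal axis), with vehicle above and LY500307 below; red points are the 57 listed genes, grey points the others, black bars the medians of consecutive windows and the dashed line the centromere. Genes beyond 3 in either direction, 8 with vehicle and 9 with LY500307, are drawn at the edge; all 12 window medians of 16p lie below 0 in both panels.

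The same quantity in the LY500307-treated libraries, which are other libraries of the same cell populations, gave a median of -0.65 for the 57 genes, -0.66 for the other 16p genes and -0.01 for 16q. On a linear scale the median gene stood at 64.8% of control with vehicle and at 63.6% with LY500307. In each treatment 56 of 57 genes had a negative value, against 51.1% of all genes tested with vehicle and 50.4% with LY500307, and 55 of 57 were negative in both. By edgeR's quasi-likelihood test, which called 64% of all genes tested with vehicle and 66.2% with LY500307, 52 of the 57 were past an adjusted p of 0.05 and lower with vehicle, where 33.3% of all genes tested were called lower, and 54 with LY500307, where 33.6% were. None was called higher, against 30.7% and 32.6%. As the arm was chosen for this contrast, nothing is read from these counts.

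The shift could be seen in each library alone. The 57 genes took 0.503% and 0.516% of gene counts in the vehicle-treated control libraries, 0.348% and 0.355% in the vehicle-treated knockout libraries, 0.503% and 0.519% in the LY500307-treated control libraries, and 0.356% and 0.367% in the LY500307-treated knockout libraries. Control and knockout libraries did not overlap, and duplicates differed by far less than the populations did. The other listed 16p genes took 1.13% to 1.20% in control and 0.753% to 0.772% in knockout libraries. Genes of 16q went slightly the other way, with 1.67% to 1.70% in control and 1.75% to 1.82% in knockout libraries. In bulk RNA a lower level in every cell and a complete loss in some of the cells cannot be told apart.

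**Figure D2:**
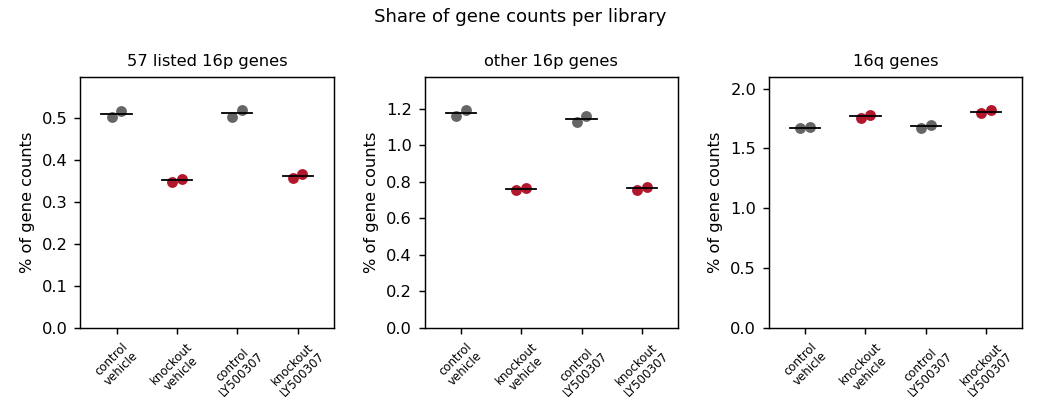
Percent of gene counts (vertical axes, from 0) taken by the 57 listed genes, by the other 16p genes and by 16q genes in each of 8 libraries; points are libraries, grey for control and red for knockout, and bars are the means of 2. The listed genes lie at 0.503% to 0.519% in the 4 control libraries and at 0.348% to 0.367% in the 4 knockout libraries.

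Among 41 chromosome arms with at least 20 tested genes, 16p had the third lowest median with vehicle, -0.66 over its 289 genes, after 18p (-0.92 over 48) and 5p (-0.78 over 102), and the next, 13q, stood at -0.39. Around the median of the arm, genes of 16p had a median absolute deviation of 0.23, against 0.21 to 0.44 on the other arms with a median of 0.28. Within 0.25 of that median lay 54.0% of them, against 30.9% to 58.2% elsewhere. The 232 other 16p genes taken alone deviated by 0.255 around their own median, and 48.7% lay within 0.25 of it. The 57 listed genes, which had more reads (a median of 1311 counts per library against 562 for the other 16p genes), deviated by 0.13 around their own median, and 40 of 57 lay within 0.25 of it. Across the 57 genes the fold change with vehicle bore little relation to read number (Pearson r = -0.06) or to order along the arm (r = 0.04); these are descriptions over genes that share libraries.

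**Figure D3:**
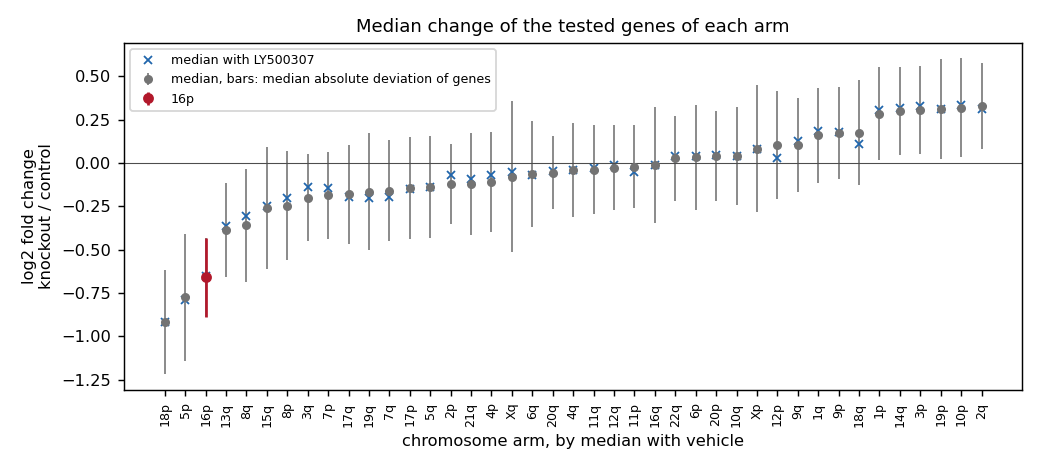
Median log2 fold change of knockout against control (vertical axis) of the tested genes of each of 41 chromosome arms (horizontal axis, by rising median); circles are medians with vehicle with bars of 1 median absolute deviation over genes, crosses medians with LY500307. 16p, in red, stands at -0.66 with a deviation of 0.23.

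Genes that control growth through the kinase mTOR stood near the arm median. In this group of 6 the values ran from -0.79 to -0.44 with vehicle, with a median of -0.68, and all 6 were below 0. NPRL3, a subunit of the GATOR1 complex that restrains mTORC1 when amino acids are short, stood at 85.8 and 81.2 CPM in control libraries with vehicle and 56.7 and 65.8 CPM in vehicle-treated knockout libraries. TSC2, the tuberin subunit of the complex that switches off the mTORC1 activator RHEB, stood at 71.8 and 70.9 CPM against 52.1 and 52.8 CPM. MLST8, a subunit of both mTOR complexes, stood at 59.2 and 69.3 CPM against 37.2 and 40.4 CPM. With vehicle both knockout libraries were below both control libraries for each of these genes, as they were for 52 of the 57 members and for 41.8% of all genes tested, from which nothing is read. The activators (MLST8, PDPK1, TELO2 and WDR24) and inhibitors (TSC2 and NPRL3) of the pathway were all lower in knockout cells. The other 6 signalling genes had a median of -0.44 and ran from -0.73 (AXIN1, a scaffold for degradation of beta-catenin) to -0.15 (RHBDF1, an inactive rhomboid that escorts ADAM17). TRAF7, a ubiquitin ligase of stress kinase signalling, stood at 157 and 158 CPM against 111 and 118 CPM, and PPP4C, a catalytic phosphatase subunit, at 101 and 118 against 66.8 and 70.4 CPM. The kinases TAOK2 and MAPK3, which encodes ERK1, were at 74.3% and 81.7% of control.

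The 8 genes for chromatin and transcription lay in a narrow range, from -0.70 to -0.37 with a median of -0.63. GLYR1, a nucleosome-binding cofactor of the KDM1A relative KDM1B, stood at 137 and 144 CPM in control libraries with vehicle and 88.0 and 89.8 CPM in knockout libraries. The zinc finger factor MAZ stood at 117 and 125 against 74.1 and 76.5 CPM, and UBN1, a subunit of the HIRA histone chaperone, at 102 and 99.0 against 61.5 and 62.8 CPM. The acetyltransferase CREBBP, which acetylates histones at enhancers, was at 68.9% of control and SETD1A, a methyltransferase for histone H3 lysine 4, at 63.2%. E4F1, a regulator of cell survival, was highest of the group at 77.5%. ZNF263, a zinc finger factor, stood at 45.5 and 47.6 against 32.7 and 28.6 CPM.

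Genes for RNA processing and translation had a median of -0.60 and ran from -0.90 to -0.29. SRRM2, a large scaffold protein of nuclear speckles and the member with most reads, stood at 727 and 755 CPM in control libraries with vehicle and 602 and 608 CPM in knockout libraries, or 81.6% of control. GSPT1, the translation termination factor eRF3a, stood at 436 and 430 against 288 and 282 CPM, and RSL1D1, a nucleolar protein, at 367 and 363 against 249 and 236 CPM. PARN, a deadenylase that trims RNA tails, and THOC6, a subunit of the THO complex for mRNA export, were lower still, at 53.6% and 54.7%. LUC7L, a splicing factor, was at 70.2% with vehicle and 86.3% with LY500307, where the libraries of control cells stood at 20.7 and 23.05 CPM and overlapped those of knockout cells at 16.2 and 21.4 CPM. In the ubiquitin system the 4 genes ran from -0.80 to -0.62: USP7, which removes ubiquitin from MDM2 and other proteins, stood at 227 and 217 against 131 and 124 CPM, STUB1, a ligase that works with chaperones, at 108 and 113 against 69.7 and 73.8 CPM, and BFAR at 66.0 and 69.3 against 40.4 and 39.8 CPM. Both glycosylases of base excision repair were low, MPG at 61.6% of control and NTHL1 at 37.8%.

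Mitochondrial and metabolic genes varied more, from -1.42 to -0.28 with a median of -0.72 over 8. TUFM, the mitochondrial elongation factor, stood at 315 and 309 CPM in control libraries with vehicle and 189 and 187 CPM in knockout libraries, and TRAP1, the mitochondrial HSP90, at 174 and 181 against 113 and 113 CPM. NME4, a nucleoside diphosphate kinase of the mitochondrion, was lower still, at 107 and 108 against 42.4 and 45.1 CPM, while RHOT2, which tethers mitochondria to motors, was at 82.1% of control. COQ7, a hydroxylase of coenzyme Q synthesis, was at 51.1% and MRPL28, a protein of the mitochondrial ribosome, at 64.6%. Membrane, transport and other genes were the most varied group, from -1.36 to 0.00 with a median of -0.52 over 17, and 16 were below 0. MVP, the major vault protein, stood at 96.5 and 100 against 80.7 and 87.7 CPM, and ABCC1, the drug efflux pump MRP1, at 124 and 119 against 50.5 and 56.6 CPM. They lay on opposite sides of the median of the list. METRN, the secreted factor meteorin, was next lowest of this group, at 32.9 and 36.0 against 15.6 and 18.6 CPM. The Rab11 effector RAB11FIP3, the tetraspan membrane protein EMP2, TBC1D24, GDE1, PIGQ of glycolipid anchor synthesis, NUBP1 of iron-sulphur cluster assembly, the dynactin subunit DCTN5 and the SNARE protein STX4 stood between 64.4% and 73.2% of control with vehicle. With LY500307 these 8 genes ran from 53.8% for PIGQ to 81.3% for TBC1D24.

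Departures of single genes from the arm were judged against the median of the 232 other 16p genes, -0.68 with vehicle and -0.66 with LY500307. With vehicle 40 of 57 genes lay within 0.25 of it and 8 lay more than 0.5 away, 4 lower and 4 higher. The 95% interval of a gene's own fold change held the arm median for 28 of 57 genes, and with LY500307 for 24. These intervals take the arm median as fixed and rest on a spread between libraries that may be technical. The share for the other 16p genes is not given, and nothing is read from these counts. When the median of each arm was removed from its genes by an offset, 24 of the 57 were past the edgeR threshold with vehicle, 13 higher and 11 lower, and 29 with LY500307, 15 higher and 14 lower, in place of 52 and 54. In the same fit 58% of all genes tested passed with vehicle (28.4% higher, 29.6% lower) and 60.2% with LY500307 (30.4% higher, 29.8% lower), and nothing is read from the members' counts. Values in the 2 treatments were also set side by side. Across the 57 genes the fold changes with vehicle and with LY500307 had a Pearson r of 0.82 and a Spearman rho of 0.75. They came from separate libraries of the same 2 populations, and 50 of 57 differed by at most 0.25. The same measures were not taken over all genes or the other 16p genes, so nothing particular to the members is read from them. Of the genes more than 0.5 from the arm median, 5 were so in both treatments with the same sign: BCKDK, NTHL1, SNN, NME4 and CLCN7.

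**Figure D4:**
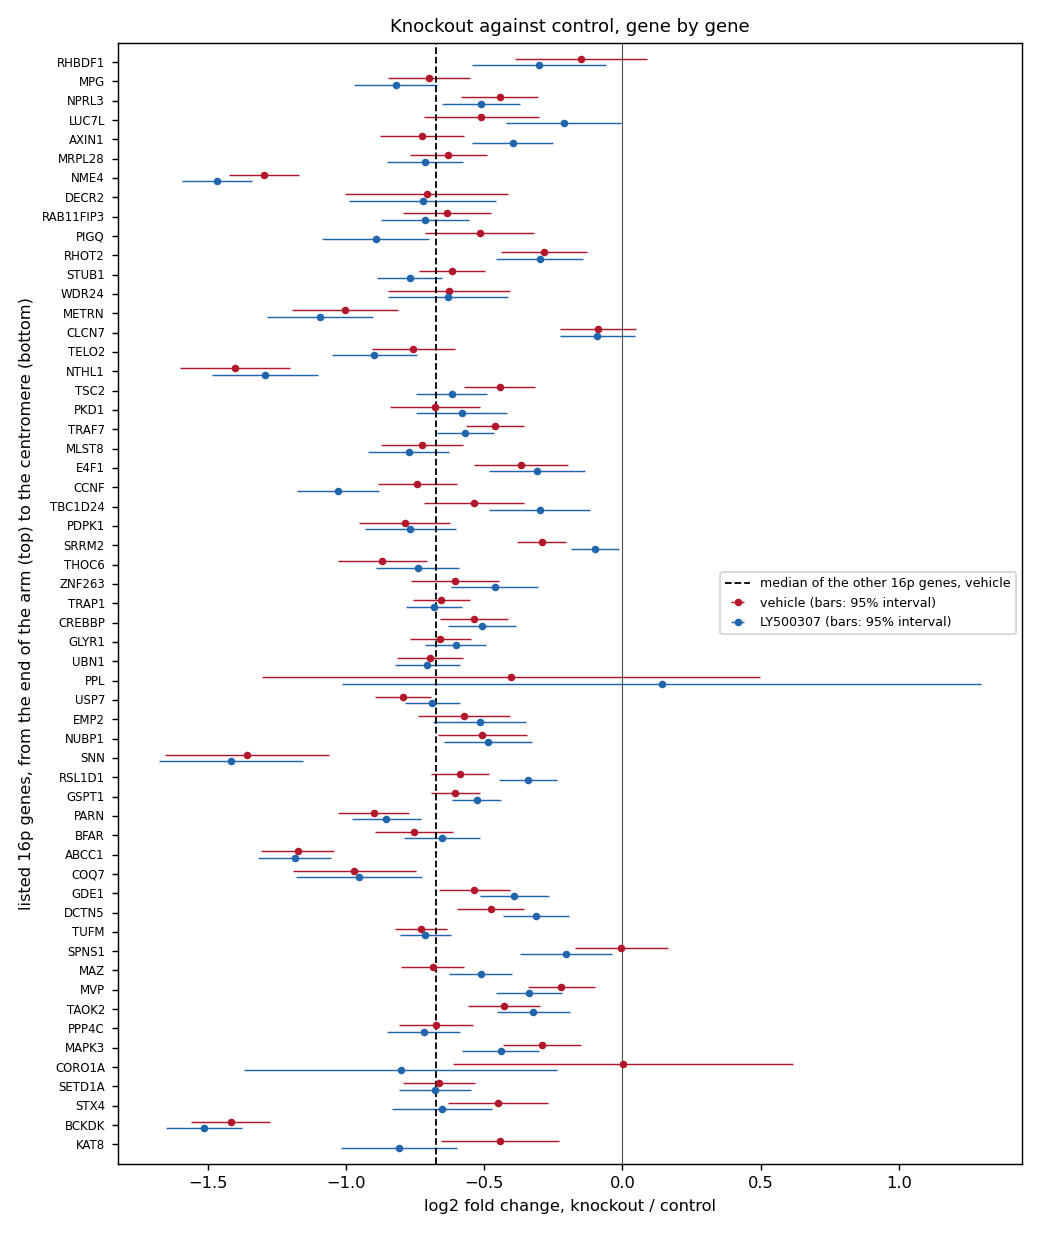
Log2 fold change of knockout against control (horizontal axis) of each of the 57 genes in order from the end of the arm to the centromere (vertical axis), with vehicle in red and LY500307 in blue; points are fold changes from 2 libraries a group, bars 95% intervals of the fit, and the dashed line the median of the other 16p genes with vehicle, -0.68. With vehicle 40 of 57 genes lie within 0.25 of that line, and the bars of 28 reach it. More than 0.5 away lie BCKDK, NTHL1, SNN and NME4 to its left and CLCN7, SPNS1, RHBDF1 and CORO1A to its right.

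BCKDK, the kinase that inhibits breakdown of branched-chain amino acids (hg19 chromosome 16, 31117428 to 31124112), was the lowest member. Its level was 65.2 and 67.7 CPM in control cells with vehicle, 24.7 and 24.99 in vehicle-treated knockout, 76.5 and 81.8 in LY500307-treated control and 28.0 and 27.5 in LY500307-treated knockout libraries. That is a log2 fold change of -1.42 (SE 0.070) with vehicle and -1.51 (SE 0.068) with LY500307, and the populations did not overlap. The next gene on the list, KAT8, an acetyltransferase for histone H4 lysine 16 (31125810 to 31142714), stood at 19.2 and 23.2 against 14.3 and 16.8 CPM with vehicle, a log2 fold change of -0.44 (SE 0.105). With LY500307 it stood at 22.3 and 25.04 against 14.0 and 13.0 CPM, or -0.81 (SE 0.103). These neighbours, whose starts are 8382 bases apart, had the largest difference with vehicle, 0.97, of all 56 pairs of members that follow each other along the arm. With LY500307 they differed by 0.71, and the pair of SNN and RSL1D1 differed most, by 1.08.

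NTHL1, a glycosylase that removes oxidised pyrimidines from DNA (2089816 to 2097867, minus strand), and TSC2 (2097968 to 2139492, plus strand) start next to each other in opposite directions. NTHL1 stood at 27.4 and 30.0 CPM in control cells with vehicle, 10.2 and 11.4 in vehicle-treated knockout, 28.4 and 31.7 in LY500307-treated control and 11.9 and 12.6 in LY500307-treated knockout libraries. Its log2 fold changes were -1.40 (SE 0.098) with vehicle and -1.29 (SE 0.095) with LY500307, while those of TSC2 were -0.44 (SE 0.064) and -0.62 (SE 0.063). The pair differed by 0.96 with vehicle and by 0.68 with LY500307. SNN, the small membrane protein stannin, stood at 9.51 and 10.96 against 3.97 and 4.01 CPM with vehicle and at 15.9 and 14.5 against 5.02 and 6.32 CPM with LY500307, near 39.0% and 37.4% of control. NME4 was at 40.7% with vehicle and 36.2% with LY500307. It overlaps DECR2, a peroxisomal reductase at 61.2% of control, on the same strand.

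At the other end, CLCN7, the lysosomal chloride and proton exchanger (1494935 to 1525078), stood at 81.5 and 88.5 CPM in control libraries with vehicle and 73.1 and 86.5 CPM in vehicle-treated knockout libraries, and at 89.6 and 98.5 against 85.1 and 91.5 CPM with LY500307. The libraries of the populations overlapped in both treatments, and the log2 fold changes were -0.09 (SE 0.068) and -0.09 (SE 0.067). SPNS1, a lysosomal lysophospholipid transporter (28985542 to 28995869), stood at 30.3 and 29.8 against 28.3 and 31.5 CPM with vehicle, at 99.7% of control, and at 31.7 and 31.1 against 25.3 and 29.2 CPM with LY500307, at 86.9%. RHBDF1 was at 90.1% and 81.1%. CORO1A, an actin regulator of leukocytes, was the only member above 0 with vehicle, at 1.45 and 1.32 against 1.26 and 1.51 CPM, but at 57.4% of control with LY500307, and so few reads do not fix its place. PPL, the cornified envelope protein periplakin, was the only member above 0 with LY500307, at 0.384 and 0.499 against 0.412 and 0.559 CPM.

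The absolute difference between members had a median of 0.28 over 56 neighbouring pairs and of 0.25 over all 1596 pairs, near ones included. Where genes overlap, the counter can leave reads unassigned. Its ambiguous entry held 0.811% to 0.861% of uniquely aligned reads in each library. Of the 57 genes 23 overlap another listed gene in the annotation, and no source used here gives the strand option of the counter. A gene and its antisense partner (MPG and NPRL3, TSC2 and PKD1, GLYR1 and UBN1) therefore cannot be told apart where they overlap. PKD1, which encodes polycystin-1, and CORO1A have near-identical copies elsewhere on the arm and are uncertain; PKD1P1, 1 such copy, had 29 to 61 counts per library and LOC606724, a copy of CORO1A, was listed at 0.

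Promoters were set beside these values for members that mark the spread. These members were NTHL1 and TSC2, which start next to each other yet differ, BCKDK, the lowest member, and SPNS1, among the highest. RefSeq promoters of GRCh38.p14 (250 bases before to 50 after the start) were found for 47 of the 57 genes. They are printed 5′ to 3′ on the strand of the gene, with capitals for matches on either strand to a GC box (GGGCGG), to the box written CCAAT, to a TATA box written as TATAAA, to an E-box with the letters CACGTG or to an ETS core run with the letters CCGGAAG. The positions are chr16:2047785-2048084 (minus strand) for NTHL1, chr16:2047735-2048034 (plus) for TSC2, chr16:31108136-31108435 (plus) for BCKDK and chr16:28974528-28974827 (plus) for SPNS1.
NTHL1: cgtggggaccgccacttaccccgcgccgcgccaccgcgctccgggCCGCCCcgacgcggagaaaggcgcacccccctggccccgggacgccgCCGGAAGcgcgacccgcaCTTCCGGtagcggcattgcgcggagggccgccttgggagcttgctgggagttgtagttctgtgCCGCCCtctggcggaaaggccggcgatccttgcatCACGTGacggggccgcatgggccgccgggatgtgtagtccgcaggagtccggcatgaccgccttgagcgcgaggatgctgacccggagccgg
TSC2: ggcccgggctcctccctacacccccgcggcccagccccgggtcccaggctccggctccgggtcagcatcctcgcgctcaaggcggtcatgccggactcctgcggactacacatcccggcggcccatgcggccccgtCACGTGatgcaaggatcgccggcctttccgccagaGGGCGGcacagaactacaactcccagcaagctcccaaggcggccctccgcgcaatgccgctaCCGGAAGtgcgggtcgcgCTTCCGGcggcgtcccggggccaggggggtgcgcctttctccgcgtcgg
BCKDK: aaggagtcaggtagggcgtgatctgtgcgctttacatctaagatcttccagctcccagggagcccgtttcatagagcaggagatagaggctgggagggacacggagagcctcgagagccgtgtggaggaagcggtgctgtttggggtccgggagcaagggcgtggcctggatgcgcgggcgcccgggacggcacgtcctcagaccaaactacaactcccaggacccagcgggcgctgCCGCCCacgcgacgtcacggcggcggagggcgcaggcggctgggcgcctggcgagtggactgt
SPNS1: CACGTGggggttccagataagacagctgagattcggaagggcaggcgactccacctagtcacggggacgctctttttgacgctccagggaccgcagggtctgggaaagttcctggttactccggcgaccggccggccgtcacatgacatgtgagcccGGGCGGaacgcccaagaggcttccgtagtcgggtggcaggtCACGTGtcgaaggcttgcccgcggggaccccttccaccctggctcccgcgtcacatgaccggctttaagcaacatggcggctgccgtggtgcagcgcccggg
The windows of NTHL1 and TSC2 share 250 bases, identical on opposite strands, so the matches in the shared part are the same letters read from either side: 1 E-box and 2 ETS core runs, beside 2 GC boxes for NTHL1 and 1 for TSC2. BCKDK has 1 GC box, and SPNS1 1 GC box and 2 E-boxes. A match is a description of letters and shows no binding.

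Member promoters were rich in CpG dinucleotides, with a median ratio of observed to expected CpG of 0.932 and a GC content of 70.3%, against 0.581 and 58.3% over 27195 promoters. A GC box was present in 36 of 47 (44.7% of all promoters), the CCAAT letters in 14 (35.7%), a TATA box in 1 (11.97%), an E-box in 10 (7.45%) and an ETS core run in 13 (10.7%). The 27195 promoters were not limited to genes that passed the filter on low counts, as all members did. Nothing particular to the members is therefore read from these ratios and shares. Over the 47 genes the CpG ratio had a Pearson r of -0.07 with the fold change in knockout cells with vehicle and the GC content an r of 0.03, both descriptions over genes that share libraries.

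Many members work in complexes with proteins encoded elsewhere, and the shift of the arm was not seen in the median of these partners. Of 51 measured partners outside 16p, from a list of 55, edgeR's test called 14 higher and 19 lower in knockout cells with vehicle. Among all genes tested 30.7% were called higher and 33.3% lower, and nothing particular to the partners is read from their counts. The median of the partners was -0.07, against -0.01 for all genes tested. MTOR, the kinase bound by MLST8, rose from 110 and 107 to 151 and 163 CPM (log2 fold change 0.54, SE 0.052, edgeR adjusted p = 5.17e-11, higher in 2 of 2 libraries). With the median of its arm, 1p, removed the value was 0.27 (edgeR adjusted p = 4.17e-05). RPTOR, a scaffold that binds MTOR, fell from 102 and 110 to 64.3 and 65.8 CPM (-0.70, SE 0.061, edgeR adjusted p = 2.67e-12, lower in 2 of 2). DEPDC5, which like NPRL3 is a subunit of GATOR1, rose by 0.77 (SE 0.108, edgeR adjusted p = 1.56e-07). CXXC1, a subunit of the SETD1A complex, rose by 0.65 and COQ9, a partner of COQ7 in coenzyme Q synthesis encoded on 16q, by 0.46. SEC13 of the GATOR2 complex rose by 0.28, but its value was -0.02 (edgeR adjusted p = 0.682) once the median of its arm, 3p, was removed. CUL1, the scaffold of the ligase that uses CCNF, fell by 0.57. The 3 partners with the smallest p among those lower all lie on 18p, the arm with the lowest median: PPP4R1 changed by -1.31, SEH1L by -1.10 and THOC1 by -0.91. With arm medians removed they stood at -0.40, -0.18 and -0.00, and THOC1 no longer passed (edgeR adjusted p = 0.981).

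The agonist was a separate test, since the arm was not chosen on it, although its contrasts use the same vehicle-treated libraries. LY500307 moved members by little in either population. In control cells 17 of 57 genes passed edgeR's test, 4 higher and 13 lower, against 12.3% of all genes tested called higher and 14% lower (26.3% in all). The median over the members was -0.06 and over all genes 0.01, and 36 of 57 members were below 0, against 48.9% of all genes. With libraries scaled by their totals 7 were higher and 5 lower, against 21% and 7.49% of all genes, so the balance of directions rests on the scaling. In knockout cells 13 passed, 5 higher and 8 lower, against 9.16% and 11.3% (20.4% in all), with a median of -0.09 against 0.01 and 40 of 57 below 0, against 47.5% of all genes. With library totals 10 were higher and 4 lower, against 17% and 7.06%. The shares called were near those of all genes in both populations. The arm as a whole had the lowest median of all 41 arms in both, but at -0.05 in control and -0.03 in knockout cells. Called changes had a median size of 0.26 in control and 0.28 in knockout cells, and PPL in control cells was the only called member with a log2 change above 1.

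In both populations 7 of 57 members passed with the same sign, 2 higher and 5 lower, from libraries that the 2 contrasts do not share. That is 12.3% of the members against 10.9% of all genes tested. It is 41.2% of the members' calls in control and 53.8% of those in knockout cells, against 41.5% and 53.4% for all genes, so the recurrence was near that of the whole table. THOC6 rose in control cells from 37.1 and 38.6 to 47.8 and 48.5 CPM (log2 fold change 0.35, SE 0.073, edgeR adjusted p = 0.000545, higher in 2 of 2 libraries) and in knockout cells from 21.0 and 20.4 to 27.6 and 30.0 CPM (0.48, SE 0.080, edgeR adjusted p = 4.05e-05, higher in 2 of 2). SNN rose by 0.57 (SE 0.121, edgeR adjusted p = 0.000632) in control and by 0.51 (SE 0.156, edgeR adjusted p = 0.0174) in knockout cells, the latter call being lost without either vehicle-treated knockout library or LY500307-treated knockout replicate 2. TELO2, a chaperone cofactor for mTOR and related kinases, fell in control cells from 66.2 and 75.2 to 54.7 and 57.9 CPM (-0.33, SE 0.072, edgeR adjusted p = 0.000848) and in knockout cells from 40.7 and 42.9 to 27.9 and 32.5 CPM (-0.47, SE 0.078, edgeR adjusted p = 3.72e-05). Its call in control cells was lost without vehicle-treated control replicate 2 (edgeR adjusted p = 0.0563). CCNF, the F-box protein cyclin F that acts in the G2 phase, fell by 0.20 (SE 0.068, edgeR adjusted p = 0.0301) in control cells and from 37.01 and 38.4 to 25.1 and 28.8 CPM in knockout cells (-0.48, SE 0.075, edgeR adjusted p = 1.31e-05). All 15 alternatives kept the call of CCNF in knockout cells, whereas that in control cells was lost with DESeq2, with library totals, with arm medians removed and without any 1 library of the contrast. PKD1 fell by 0.37 in control and 0.27 in knockout cells, E4F1 by 0.33 and 0.28 and RHOT2 by 0.22 and 0.24. In knockout cells these 3 calls were lost with library totals and without LY500307-treated replicate 1 or vehicle-treated replicate 2, and that of RHOT2 also with DESeq2 and with arm medians removed. In control cells the call of PKD1 held under all 15 alternatives. That of E4F1 was lost without LY500307-treated replicate 1 or vehicle-treated replicate 2, and that of RHOT2 without either of these as well as with DESeq2, library totals and arm medians removed.

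In control cells, BCKDK rose by 0.25 (SE 0.063, edgeR adjusted p = 0.00320) and DECR2 by 0.37 (SE 0.130, edgeR adjusted p = 0.0328), while MAZ fell by 0.26 (SE 0.055, edgeR adjusted p = 0.000691) and TAOK2 by 0.26 (SE 0.064, edgeR adjusted p = 0.00261). The call for DECR2 was lost with DESeq2 (adjusted p = 0.115) and without 3 of the 4 libraries of the contrast, at edgeR adjusted p of up to 0.464. The call for BCKDK was lost without LY500307-treated control replicate 2 (edgeR adjusted p = 0.0788). The value of PPL, -1.32 (SE 0.498, edgeR adjusted p = 0.0453), came from 0.426 and 1.79 CPM with vehicle against 0.384 and 0.499 CPM with LY500307. Without vehicle-treated control replicate 2 it was 0.05 (edgeR adjusted p = 0.971). In knockout cells, AXIN1 rose from 25.6 and 24.9 to 31.2 and 31.4 CPM (0.31, SE 0.076, edgeR adjusted p = 0.00281) and GDE1, a glycerophosphodiester phosphodiesterase, by 0.26 (SE 0.064, edgeR adjusted p = 0.00346). RSL1D1 rose by 0.19 (SE 0.052, edgeR adjusted p = 0.00633), STUB1 fell by 0.24 (SE 0.060, edgeR adjusted p = 0.00436), MPG by 0.29 (SE 0.076, edgeR adjusted p = 0.00515) and NME4 by 0.22 (SE 0.066, edgeR adjusted p = 0.0135). The calls for GDE1, STUB1 and MPG were each lost without 1 library of the contrast. Those for RSL1D1 and NME4 were lost without LY500307-treated knockout replicate 1 and without vehicle-treated knockout replicate 2. The call for NME4 was also lost with library totals, and that for AXIN1 held under all 15 alternatives.

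**Figure D5:**
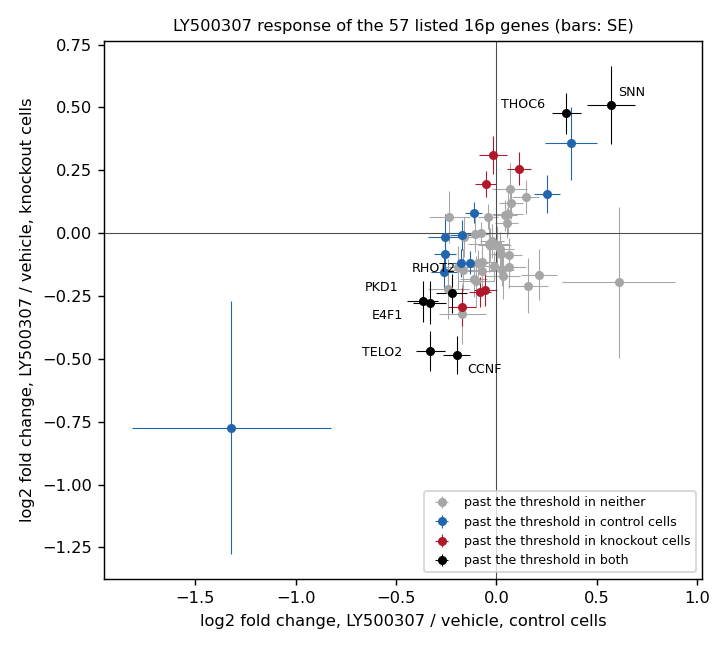
Log2 fold change of LY500307 against vehicle of each of the 57 genes in control cells (horizontal axis) and knockout cells (vertical axis); points are genes, bars standard errors, and colours show in which population the edgeR adjusted p was below 0.05. The 7 genes past it in both, in black, have the same sign in both populations; the blue point at far left is PPL, which rests on 1 library.

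Whether the response to the agonist differed between populations was asked with the interaction of knockout and LY500307. By edgeR's quasi-likelihood test 0 of 57 members passed, against 1.62% of all genes tested (0.526% higher, 1.09% lower); 8 had an unadjusted p below 0.05, and DESeq2 called 0 as well. The median was -0.01 for the members and 0.01 for all genes. RSL1D1 came nearest among the genes named for the agonist, with an interaction of 0.25 (SE 0.073, edgeR adjusted p = 0.0749), and AXIN1 stood at 0.33 (SE 0.104, edgeR adjusted p = 0.100). With a replicate block AXIN1 (edgeR adjusted p = 0.0394), RSL1D1 (0.00743) and SRRM2 (0.00828) passed.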

How the data were processed

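RNA sequencing counts of 8 ES2 libraries were analysed. The authors deposited whole-number read counts per gene; the submitters' processing notes name bcl2fastq, HTSeq, TopHat2 2.0.8b and the build hg19. Total RNA was prepared on spin columns with a TruSeq kit and read as single ends, per the labels' protocols. The counter's summary entries were removed (outside genes, 10.7% to 12.8% of uniquely aligned reads). No pair of duplicates agreed within sampling noise (chi-square of 3.12 to 4.44 for each degree of freedom), and all 8 libraries were kept.

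Counts were analysed with edgeR 4.0.16 in R 4.3.3: filterByExpr kept 13498 of 23228 genes, TMM scaled the libraries, and 1 quasi-likelihood model with a mean per group was fitted (biological coefficient of variation 3.95%). Tests were two-sided, with p-values adjusted by Benjamini-Hochberg across the whole table and a threshold of 0.05. CPM are counts divided by the TMM-scaled library size. DESeq2 1.42.0, other scalings, no filter, a replicate block, removal of arm medians and leaving out each library were alternatives. The fit was tested on simulated counts.

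Positions were read from GENCODE release 44 as lifted to GRCh37, the build of the counts, matched by symbol for 19035 genes and by RefSeq synonym for 2173, with 2020 unmatched. Arms were divided at the centromere gap of the genome sequence. Promoters came from RefSeq.

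Members, role groups and the lists of partners and markers were chosen with earlier results of these data known. Named genes are KDM1A, the 10 lowest and 10 highest members with vehicle, up to 5 called members per direction for the agonist contrasts, the 3 members with the highest mean CPM of each role group, the 5 partners with the smallest p per direction and the 3 members with the fewest counts. Members shown beside a neighbour (KAT8, TSC2) or given as further examples were chosen after their values were seen.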

Additional observations from a re-analysis of the deposited data

How the results depend on the processing

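The median of the 57 genes in knockout against control cells kept its sign under every scaling, filter and tool tried and without any 1 library. With vehicle it moved from -0.63 to -0.58 with library totals and ranged from -0.67 to -0.59 without single libraries; with LY500307 it ranged from -0.70 to -0.63. The lowest window median of 16p was -0.87 in windows of 15 genes, and the highest was -0.60 in windows of 40. Counts of called members depended more on the setting. For LY500307 in control cells 17 became 11 with DESeq2, 11 with arm medians removed (6 higher, 5 lower) and 7 to 18 without single libraries, the lowest without vehicle-treated control replicate 2, with 9 and 11 without LY500307-treated control replicates 2 and 1. In knockout cells 13 became 6 to 16, with 6 without LY500307-treated knockout replicate 1 and 8 without vehicle-treated knockout replicate 2. Calls of members held under all 15 alternatives for 5 of 17 in control and 4 of 13 in knockout cells. For the interaction 0 became 1 without a filter (RSL1D1), 3 with the replicate block and 0 to 2 without single libraries (RSL1D1 and CCNF without LY500307-treated knockout replicate 2). Partner calls stayed between 27 and 38, against 33, with 28 to 33 without single libraries. Whether equal replicate numbers mark a pairing was not settled. Differences between duplicates correlated weakly between groups, at 0.04 to 0.11, and all were above 0. The replicate block moved member calls from 17 to 22 in control and from 13 to 19 in knockout cells. Over named genes, 2 values past the threshold in the main fit turned sign. PPL with LY500307 in control cells ranged from -2.01 to 0.050 without single libraries, the latter without vehicle-treated control replicate 2. SEC13 in knockout cells with vehicle stood at -0.023 with arm medians removed. Values not past the threshold could turn sign too, such as ABCC1 with LY500307 in control cells, at -0.02 in the main fit and 0.05 with library totals. The cause of these changes was not tested. At this depth members with few reads, PPL and CORO1A, have wide intervals.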
